A study of Homo sapiens with 40 samples.

Results

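Zinc transporters and metallothioneins were examined in single T47D cells as 37 protein-coding genes out of 60279 listed genes, of which 19550 were protein-coding in the annotation used. The genes were taken by symbol: 14 of the SLC39A family, 10 of the SLC30A family, 12 metallothioneins and the regulator MTF1. The set was chosen because SLC39A7 had no read in the NEB cells, so the levels of its members in NEB against G&T or Takara are given as a description. The comparison of Takara with G&T was not used in that choice.

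T47D is an established line of estrogen receptor positive breast cancer cells. All cells were of passage 10 and were sorted as living EpCAM+ and CD49f+ cells. The data hold 13 cells prepared with G&T (mRNA pulled away from genomic DNA on beads, then full-length cDNA), 13 with Takara (the SMART-seq HT kit) and 14 with NEB (the NEBNext Single Cell/Low Input kit), with no treatment named in the labels. After the quality thresholds of the study 11 cells remained per protocol, with 658154 to 1166633 reads on genes per cell in G&T, 818512 to 1287911 in Takara and 624772 to 963816 in NEB. Since plate and sequencing run changed with the protocol, their parts cannot be told apart. A protocol therefore counts as 1 sample, and no test was made between protocols.

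Zinc is held at a very low free level in the cytosol. SLC39A proteins (ZIP) bring zinc into the cytosol from outside the cell or from organelles, SLC30A proteins (ZnT) move it out of the cytosol, and metallothioneins bind it through clusters of cysteines. MTF1 senses cytosolic zinc and binds metal response elements upstream of metallothionein genes and of SLC30A1. In breast cancer cells SLC39A6 is known as an estrogen-regulated gene, and SLC39A7 as the gate that releases zinc from the endoplasmic reticulum.

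The cells carried luminal markers at high levels. Summed over 6 luminal epithelial markers, every cell lay between 1607 and 26565 CPM (read counts scaled to the same total of reads on genes in each cell), with reads on 6 of 6 markers in each protocol. Of 3 basal markers, the summed level did not exceed 2.62 CPM in any cell, and TP63, KRT5 and KRT14 had no read in NEB. Immune markers reached at most 2.48 CPM and endothelial markers 25.5 CPM, both in G&T. They were at 0 in Takara and NEB. Fibroblast markers reached at most 50.04 CPM, nearly all from COL1A1, which had reads in 11 G&T, 10 Takara and 9 NEB cells. COL1A2 was at 0 in Takara and NEB and had 3 reads in G&T.

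The first 120 coding bases of 5 members are shown as examples, with no value over all genes beside them. SLC39A7 had no NEB read and SLC39A1 had 111 in 3 cells, while SLC39A11, SLC39A9 and SLC30A7 had the highest pooled levels in NEB. SLC39A1 was not picked by its rank, since other members, such as SLC39A3 and SLC39A4, had fewer NEB reads. They come from the GRCh38 genome with GENCODE release 44, 5′ to 3′ on the coding strand, with the start codon in capitals. Those of SLC39A7 and SLC39A1 were 68.3% and 69.2% G or C, those of SLC39A9 and SLC30A7 were 47.5% and 46.7%, and that of SLC39A11 was 57.5%. The SLC39A7 stretch is exonic at chr6:33201246-33201365 on the plus strand, and that of SLC39A1 is exonic at chr1:153962596-153962715 on the minus strand. The SLC39A11 stretch runs over 2 coding exons at chr17:73084835-73088764 on the minus strand. The SLC39A9 stretch runs over 2 coding exons at chr14:69399370-69424117, and that of SLC30A7 over 2 coding exons at chr1:100896263-100896609, both on the plus strand.
SLC39A7: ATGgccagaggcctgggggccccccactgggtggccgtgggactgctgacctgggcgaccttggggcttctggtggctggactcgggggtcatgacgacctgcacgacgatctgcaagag
SLC39A1: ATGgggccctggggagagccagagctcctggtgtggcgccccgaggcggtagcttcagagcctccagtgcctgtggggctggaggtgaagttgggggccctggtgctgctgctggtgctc
SLC39A11: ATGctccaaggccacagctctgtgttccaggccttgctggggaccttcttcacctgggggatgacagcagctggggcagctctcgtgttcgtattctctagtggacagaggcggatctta
SLC39A9: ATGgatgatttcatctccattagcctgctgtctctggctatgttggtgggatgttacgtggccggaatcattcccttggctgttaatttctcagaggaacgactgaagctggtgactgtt
SLC30A7: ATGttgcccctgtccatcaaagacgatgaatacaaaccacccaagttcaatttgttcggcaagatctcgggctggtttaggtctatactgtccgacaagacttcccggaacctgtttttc

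Most members were found in some cell, but 9 of the 37 had no read in any kept cell of the protocols analysed: MT3, MT4, MT1B, MT1G, MT1H, MT1HL1, SLC30A8, SLC30A10 and SLC39A5. Several of these are known from other tissues, such as MT3 from brain and SLC30A8 from the insulin granules of pancreatic beta cells. At least 1 kept cell of G&T held reads of 24 members, and the corresponding numbers were 26 for Takara and 19 for NEB. These are 64.9%, 70.3% and 51.4% of the members, beside 71.7%, 65.3% and 49.5% of all protein-coding genes. A count of 0 over the pooled cells allows up to 0.316 CPM in G&T, 0.256 CPM in Takara and 0.376 CPM in NEB.

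NEB cells held reads of fewer members than cells of the other protocols. A G&T cell held reads of 18.8 ± 1.33 members (SD, n = 11 cells), with a range of 17 to 21. A Takara cell held 20.5 ± 0.820, with a range of 19 to 22. A NEB cell held 10.3 ± 2.28, with a range of 8 to 15, and no NEB cell reached the lowest G&T cell. With each cell thinned to the reads of the smallest one, the means were 18.5, 20.3 and 10.2. The same gap was present over all listed genes. A kept cell had reads on 9541 to 12794 genes in G&T, 10624 to 11855 in Takara and 4416 to 6719 in NEB. The lower member counts of NEB cells are therefore not read as a trait of the members.

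No cell lacked reads of 13 members in G&T, while this held for 16 in Takara and for 4 in NEB. The 4 in NEB were SLC30A7, SLC39A6, SLC39A9 and SLC39A11, which also had reads in every cell of the other protocols. Of all 19550 protein-coding genes, 1243 had reads in every kept cell of the 3 protocols. By family, a NEB cell held 5.00 ± 1.41 of the 14 SLC39A genes (SD, n = 11 cells), against 10.7 ± 0.647 in G&T and 11 ± 0.447 in Takara. Of the 10 SLC30A genes it held 3.82 ± 0.982, against 5.27 ± 0.786 and 6.09 ± 0.701. The map of levels by cell shows the filled rows of G&T and Takara and the gaps of NEB.

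**Figure D1:**
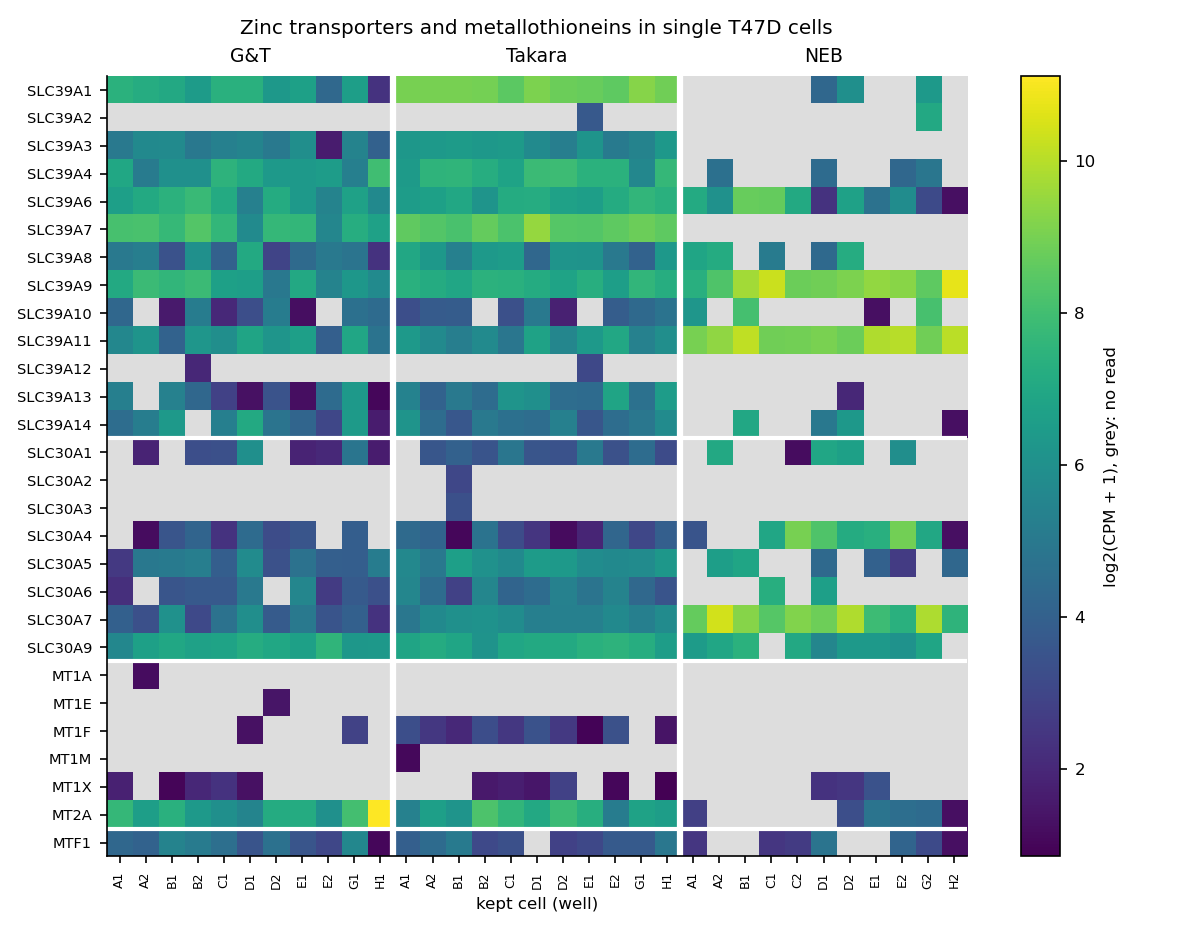
Level of the 28 members with any read (rows, by family) in the 33 kept cells (columns, named by well, grouped by protocol), as log2(CPM + 1), with grey for no read. SLC39A7 and SLC39A3 are grey across NEB, while SLC39A9, SLC39A11 and SLC30A7 are brightest there.

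Among genes that import zinc from organelles, SLC39A7 was the member on which the choice of the set rests. It encodes the ZIP protein of the endoplasmic reticulum and Golgi, and lies at chr6:33200305-33204439 (GRCh38). Its level was 46.0 CPM in the lowest G&T cell, 199 in the median and 327 in the highest. In Takara these values were 286, 377 and 716 CPM, and in NEB all 11 cells had no read. G&T and Takara cells overlapped, and every cell of both lay above every NEB cell.

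Pooled over cells, SLC39A7 stood at 185 CPM in G&T (1758 reads, exact 95% Poisson interval 176.5 to 194), 395 CPM in Takara (4623 reads, 383 to 406) and 0 in NEB. The intervals here and below cover counting error only, since the reads carry no molecular identifiers. With 3 reads set in place of the count of 0 in NEB, SLC39A7 was 492-fold lower than in G&T and 1049-fold lower than in Takara. The exact 95% intervals reached down to 400-fold and 853-fold. Takara over G&T was 2.13-fold (2.02 to 2.25). Other members had no NEB read as well, among them SLC39A3 and MT1F, and SLC39A13 had 2 reads in 1 cell.

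SLC39A9 and SLC39A11 were higher in NEB than in the other protocols. SLC39A9, a ZIP protein of the Golgi region, had cells at 30.001, 102 and 232 CPM (lowest, median, highest) in G&T, 95.5, 149 and 197 in Takara, and 162, 553 and 1711 in NEB. The NEB cells were mostly higher, but their lowest cell lay within the range of the other protocols. Pooled levels were 114, 149 and 667 CPM, and NEB over G&T was 5.84-fold (95% interval 5.47 to 6.23).

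SLC39A11, a distant member of the ZIP family, was higher in all NEB cells. Its cells ran from 14.6 over a median of 70.8 to 119 CPM in G&T and from 28.7 over 54.1 to 127 CPM in Takara. In NEB they ran from 451 over 534 to 1118 CPM. Every NEB cell lay above every cell of G&T and Takara, which overlapped each other. The pooled levels were 61.5, 64.3 and 707 CPM, an 11.5-fold difference between NEB and G&T (10.6 to 12.6) and 11.01-fold between NEB and Takara (10.2 to 11.9). Between Takara and G&T the ratio was 1.05 (0.937 to 1.17).

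SLC39A13, which carries zinc from vesicles of the early secretory pathway and is mutated in a form of Ehlers-Danlos syndrome, ran the other way in NEB. Its cells spanned 0, 10.3 and 85.0 CPM in G&T (lowest, median, highest) and 15.9, 31.0 and 115 CPM in Takara. In NEB 10 cells had no read and 1 cell had 2. The NEB cells lay below every Takara cell and overlapped the lowest G&T cell. G&T was 80.6-fold above NEB with an interval of 22.0 to 670.1, and Takara was 2.37-fold above G&T (2.01 to 2.81).

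**Figure D2:**
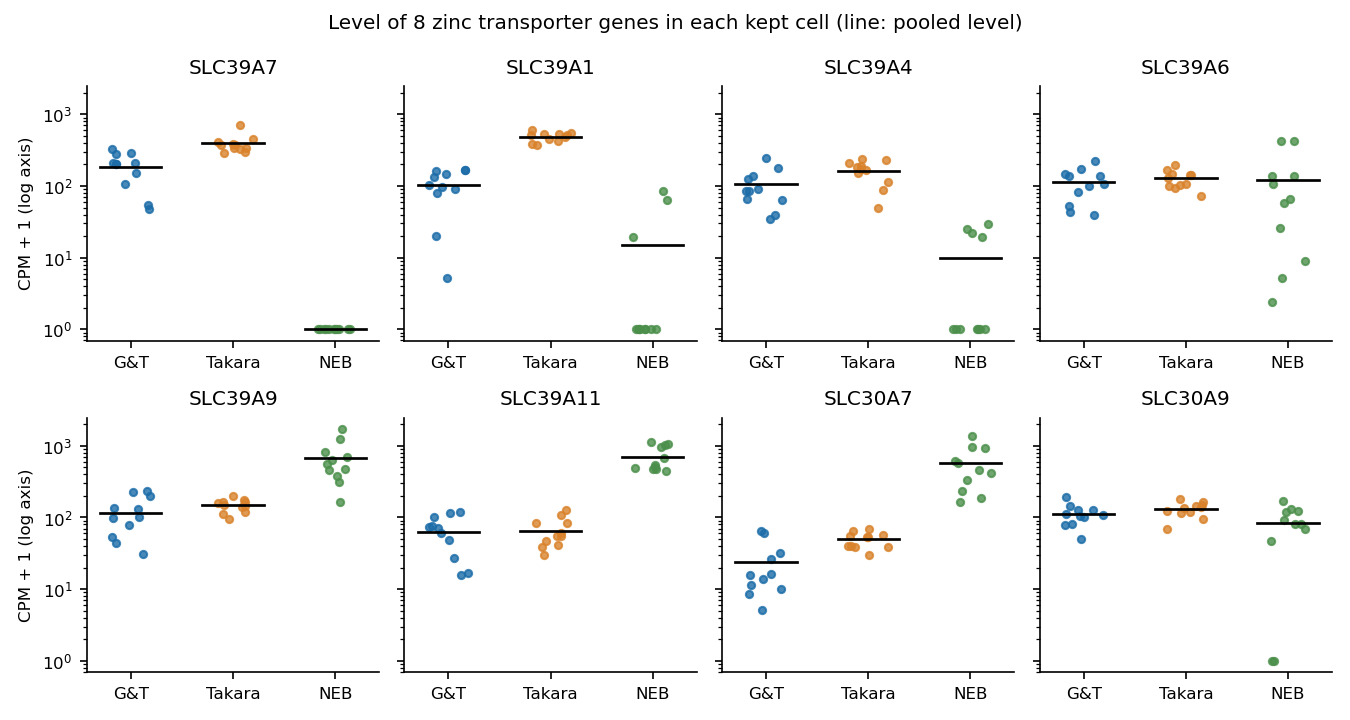
CPM + 1 on a log axis in each of the 11 kept cells of each protocol for 8 zinc transporter genes, 1 point per cell, with a line at the pooled level. SLC39A7 lies at no read in all NEB cells, SLC39A6 has near-equal pooled levels of 113, 129 and 119 CPM, and SLC39A11 and SLC30A7 are higher in every NEB cell than in any other cell.

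Among the importers of the cell surface, SLC39A1 was the member for which Takara and G&T separated. It encodes a widely expressed plasma membrane importer, at chr1:153959099-153968184. Its cells spanned 4.15, 103 and 169 CPM in G&T (lowest, median, highest), 366, 509 and 605 CPM in Takara, and 0, 0 and 83.2 CPM in NEB. Every Takara cell lay above every G&T and every NEB cell, and 8 of the 11 NEB cells had no read. Without NEB cell G2 its pooled NEB level was 8.03 CPM.

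Pooled over cells, SLC39A1 stood at 484 CPM in Takara, against 103 CPM for G&T and 13.9 CPM for NEB. Takara over G&T was 4.69-fold (4.38 to 5.02), and Takara over NEB was 34.8-fold (28.8 to 42.3). In the annotation 69.1% of the exon bases of SLC39A1 overlap those of other genes, among them CREB3L4. The share of reads left uncounted as ambiguous was 7.04 to 10.5% in G&T cells, 10.0 to 11.2% in Takara and 5.41 to 6.06% in NEB, and its part in this difference was not tested.

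SLC39A3 and SLC39A4 were lower in every NEB cell than in any other cell. SLC39A4, the importer of dietary zinc whose loss causes acrodermatitis enteropathica, spanned 34.1, 84.5 and 248 CPM in G&T, 48.3, 170 and 236 CPM in Takara, and 0, 0 and 28.8 CPM in NEB (lowest, median, highest). Its pooled level in NEB, 8.90 CPM, was 11.96-fold below G&T (9.40 to 15.4) and 17.9-fold below Takara (14.1 to 23.0). SLC39A3, a surface importer related to SLC39A1, spanned 2.09, 38.8 and 60.3 CPM in G&T and 32.5, 78.0 and 89.8 CPM in Takara. It had no NEB read. With 3 reads set there it was 94.3-fold below G&T and 178-fold below Takara, with intervals down to 76.3-fold and 144-fold.

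SLC39A6 was the surface importer with the nearest levels across protocols. Its cells spanned 39.0, 107 and 222 CPM in G&T (lowest, median, highest), 70.6, 127 and 195 CPM in Takara, and 1.42, 65.5 and 426 CPM in NEB. All ranges overlapped, and NEB held both the lowest and the highest cells. The pooled levels were 113 CPM (106 to 119), 129 CPM (123 to 136) and 119 CPM (112 to 127), so NEB over G&T was 1.06-fold (0.968 to 1.16) and Takara over G&T was 1.15-fold (1.06 to 1.24).

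SLC39A6 reads were spread unevenly over the NEB cells. Cell B1 held 30.5% of them, and without it the pooled level was 90.5 CPM. Cell C1 was close behind, with 273 of the 949 reads (418 CPM, beside 426 CPM in B1). The coefficient of variation across cells was 1.23 in NEB, against 0.511 for G&T and 0.291 for Takara. For 1243 protein-coding genes that no kept cell lacked, the median coefficient was 0.531 in NEB, against 0.477 for G&T and 0.300 for Takara. Of the 4 members in that group, SLC39A11 had 0.390 in NEB and SLC39A6 the highest value there.

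SLC39A2 is an importer known from skin, and its reads came from single cells. In NEB all 82 reads were in cell G2 (131 CPM), in Takara all 13 were in cell E1, and in G&T none was found in a kept cell. With 3 reads set for G&T, the fold of NEB over G&T was 32.6 (interval from 25.9 upward). Without NEB cell G2 the NEB level was 0. The remaining importers SLC39A8, SLC39A10, SLC39A12 and SLC39A14 had pooled levels of 0 to 63.2 CPM, and the ranges of their cells overlapped between all protocols. NEB cell B1 held 45.1% of the SLC39A10 and 51.5% of the SLC39A14 reads of its protocol, and without it these genes went from 51.7 to 31.0 CPM and from 21.2 to 11.2 CPM. SLC39A12 had 2 reads in G&T, 8 in Takara and none in NEB.

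Among exporters, SLC30A7 stood out in NEB. It encodes a ZnT protein of the Golgi that supplies zinc to secreted enzymes. Its cells spanned 4.15, 14.9 and 64.7 CPM in G&T (lowest, median, highest), 29.4, 52.4 and 67.7 CPM in Takara, and 166, 466 and 1380 CPM in NEB. Every NEB cell lay above every other cell, while G&T and Takara overlapped. The pooled NEB level of 569 CPM was 24.8-fold that of G&T (21.7 to 28.6) and 11.7-fold that of Takara (10.7 to 12.8). Takara over G&T was 2.12-fold (1.81 to 2.49).

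SLC30A4, which loads zinc into late endosomes and vesicles, was also higher in NEB but not in every cell. Its cells spanned 0, 8.57 and 21.0 CPM in G&T, 1.03, 8.54 and 26.1 CPM in Takara, and 0, 128 and 517 CPM in NEB (lowest, median, highest). In NEB 2 of 11 cells had no read, so the ranges overlapped. Pooled levels were 7.37, 10.9 and 181 CPM, and NEB over G&T was 24.5-fold (19.3 to 31.6).

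SLC30A5, SLC30A1 and SLC30A9 differed less. SLC30A5, which forms a complex with SLC30A6 in the early secretory pathway, had pooled levels of 23.6, 63.9 and 25.3 CPM. Its cells spanned 4.96 to 55.5 CPM in G&T, 29.9 to 99.1 in Takara and 0 to 116 in NEB, with medians of 25.5, 56.0 and 5.27 CPM, and without NEB cell B1 the pooled NEB level was 16.9 CPM. These ranges overlapped, and Takara over G&T was 2.71-fold (2.33 to 3.16).

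SLC30A1, the exporter of the plasma membrane and a known target of MTF1, had pooled levels of 9.16, 14.9 and 41.5 CPM in G&T, Takara and NEB. Its cells reached from 0 to 61.5 CPM in G&T (median 2.68), 0 to 30.8 in Takara (median 10.7) and 0 to 130 in NEB (median 0). The NEB level came from 5 cells with reads and 6 without, so the ranges overlapped, and NEB was highest by pooled level and lowest by median. NEB over G&T was 4.53-fold (3.57 to 5.81) on the pooled reads. G&T cell D1 held 47.1% of the G&T reads, and without it the G&T level was 5.21 CPM.

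SLC30A9, linked to zinc export from mitochondria, had near-even levels. Cells spanned 48.3, 106 and 191 CPM in G&T (lowest, median, highest), 68.6, 137 and 177 CPM in Takara, and 0, 81.2 and 171 CPM in NEB. The ranges overlapped, with 2 NEB cells at 0. Pooled levels were 112, 129 and 81.8 CPM. Of the remaining exporters, SLC30A6 had 12, 25.9 and 24.6 CPM, the NEB reads in 2 cells (13.0 CPM without cell C1), and SLC30A2 and SLC30A3 had 7 and 9 reads, all in Takara cell B1.

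Metallothionein reads came almost wholly from MT2A, the most widely expressed human isoform. It made up 99.4% of metallothionein reads in G&T and 95.5% in Takara. In NEB, where the family had 74 reads in all, its share was 81.1%. Its cells spanned 43.5, 141 and 2226 CPM in G&T (lowest, median, highest), 34.6, 107 and 305 CPM in Takara, and 0, 1.42 and 26.6 CPM in NEB. Every NEB cell lay below every other cell, and Takara and G&T overlapped.

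The pooled MT2A level was 341 CPM in G&T (3238 reads), 134 in Takara (1567 reads) and 7.52 in NEB (60 reads). The G&T level rested on cell H1, which held 2146 reads (66.3%). Without H1 it was 128 CPM, Takara over G&T went from 0.392-fold (0.369 to 0.417) to 1.05-fold (0.967 to 1.13), and G&T over NEB went from 45.3-fold (35.1 to 59.5) to 17.0-fold (13.1 to 22.4). Leaving out H1 was chosen after its value was seen.

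**Figure D3:**
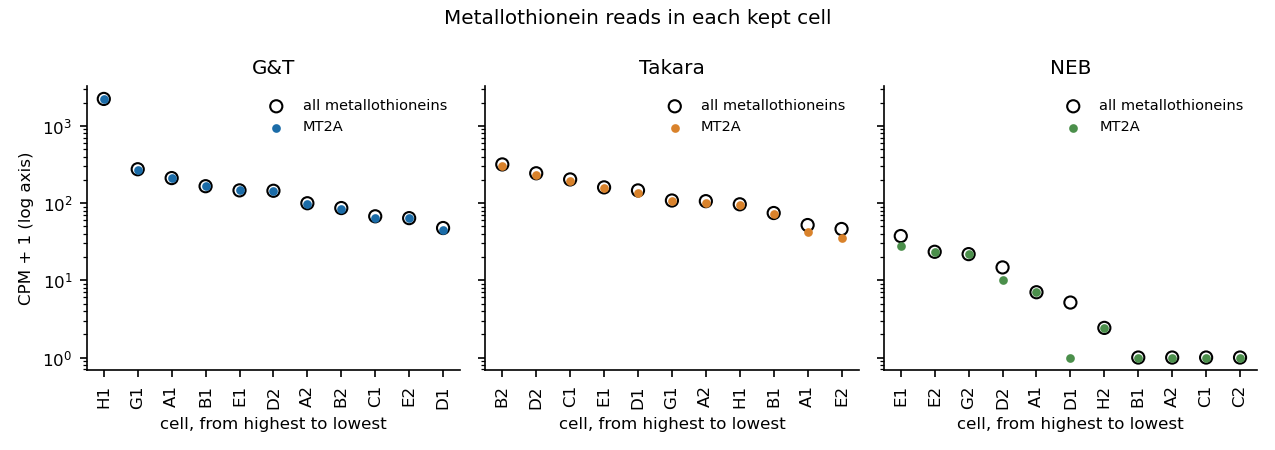
Summed metallothionein level (open circles) and MT2A level (filled points) as CPM + 1 on a log axis, in the 11 kept cells of each protocol ordered from highest to lowest. G&T cell H1 lies at 2226 CPM of MT2A while the other G&T cells lie between 43.5 and 266 CPM.

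A top cell of this weight was rare. Of 1682 protein-coding genes with at least 100 CPM pooled in G&T, the median share of reads in the top cell was 18.0%. A share as large as that of MT2A or larger was held by 3 genes (0.178%), MT2A itself among them. Cell H1 had 9541 genes with a read, fewer than the other kept G&T cells (10074 to 12794), while its 13.0% mitochondrial and 2.49% ERCC reads lay within their range. Its ambiguous share was the highest of the kept G&T cells, at 10.534% beside 10.497% in the next. SLC39A4 was also highest in H1, at 248 CPM beside 34.1 to 178 CPM in the other cells. In contrast SLC39A1, SLC39A8, SLC30A7 and MTF1 were lowest there, and SLC30A1 was at 2.07 CPM beside a median of 2.91 CPM.

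MT1X and MT1F were the only other metallothioneins at or above 1 CPM in any protocol. MT1X had pooled levels of 1.05, 1.19 and 1.76 CPM, from 10, 14 and 14 reads, in 5, 6 and 3 cells. Its cells spanned 0 to 4.08, 0 to 6.11 and 0 to 9.80 CPM, so they overlapped, and without NEB cell E1 the NEB level was 0.964 CPM. MT1F had 6 reads in 2 G&T cells, 58 reads in 10 Takara cells and none in NEB, with highest cells of 6.34 and 9.76 CPM. Takara over G&T was 7.84-fold for MT1F (3.39 to 22.2), and the ranges of the cells overlapped. Without G&T cell G1, which held 83.3% of them, 1 G&T read of MT1F was left (0.115 CPM).

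MT1A, MT1E and MT1M had 1, 2 and 1 reads in all. The coding sequences of these genes are close to each other, with 92.35% of 183 bases the same between MT2A and MT1X and 91.3% between MT2A and MT1F. Reads that fit more than 1 place were not counted per gene (2.47 to 5.08% of reads per cell were multimapping), so the division of reads among metallothioneins is uncertain.

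Metal response elements were looked up in the promoters of the family, since MTF1 acts through them. The core was searched as TGCACNC and TGCGCNC on both strands in the 250 bases before the start of each gene in RefSeq promoters (GRCh38.p14), where 27 of the 37 members matched. A core was present in 24.8% of all 35116 promoters and in 12 of the 27 members. At least 3 cores were present in 1.58% of all promoters and in 5 of 5 metallothioneins with a promoter entry. The promoters of MT2A (7 cores, chr16:56608334-56608583, plus strand), MT1X (4 cores, chr16:56682220-56682469, plus strand) and SLC30A1 (1 core, chr1:211579162-211579411, minus strand) are given with cores in capitals, to set beside the levels above.
MT2A: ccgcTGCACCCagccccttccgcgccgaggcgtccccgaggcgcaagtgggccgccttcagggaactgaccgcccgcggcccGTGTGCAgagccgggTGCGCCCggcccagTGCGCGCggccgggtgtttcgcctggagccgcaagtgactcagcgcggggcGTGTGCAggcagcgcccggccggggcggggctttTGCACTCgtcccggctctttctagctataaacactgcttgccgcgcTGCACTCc
MT1X: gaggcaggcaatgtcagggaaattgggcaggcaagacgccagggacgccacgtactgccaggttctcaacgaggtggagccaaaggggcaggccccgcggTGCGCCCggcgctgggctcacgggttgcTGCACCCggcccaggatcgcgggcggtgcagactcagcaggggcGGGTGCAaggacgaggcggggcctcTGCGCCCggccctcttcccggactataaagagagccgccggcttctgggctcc
SLC30A1: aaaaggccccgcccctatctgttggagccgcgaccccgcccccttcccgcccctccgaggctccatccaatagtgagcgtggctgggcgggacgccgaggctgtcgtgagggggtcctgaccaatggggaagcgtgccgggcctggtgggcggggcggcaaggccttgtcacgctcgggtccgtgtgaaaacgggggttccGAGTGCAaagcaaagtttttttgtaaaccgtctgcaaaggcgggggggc

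The number of cores did not follow the levels. MT2A and MT1X had 373 and 0.610 CPM per kilobase of exon in G&T, where cell H1 held 66.3% of the MT2A reads. MT1H (8 cores), MT1B and MT4 (3 cores each) had no read in any kept cell. SLC30A2, with 3 cores, had reads in 1 Takara cell. A match of letters is a description of the promoter and does not show binding in these cells. The regulator itself, MTF1, had pooled levels of 21.6, 13.9 and 6.90 CPM in that order of protocols (G&T, Takara, NEB). Its cells spanned 1.04, 18.6 and 48.2 CPM, 0, 12.6 and 32.0 CPM, and 0, 4.50 and 27.0 CPM (lowest, median, highest), all overlapping. G&T over NEB was 3.13-fold (2.31 to 4.29) and G&T over Takara was 1.55-fold (1.26 to 1.92). In NEB cell D1 held 47.3% of the MTF1 reads, and the pooled level without it was 4.14 CPM.

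Ordered by pooled level per kilobase of exon, the families had a different head in NEB. In G&T the order of the leading members was MT2A (373 CPM per kb), SLC39A7 (46.2), SLC39A6 (30.6) and SLC39A1 (30.5), the last pair being nearly equal. The MT2A value rested on cell H1, without which its pooled G&T level was 128 CPM in place of 341, beside 134 in Takara. In Takara MT2A (146) and SLC39A1 (143) led with almost the same level, before SLC39A7 (98.6) and SLC39A6 (35.1). In NEB SLC39A11 (127) led, before SLC39A9 (93.5), SLC30A7 (66.2) and SLC39A6 (32.3), and MT2A had 8.23 CPM per kb. SLC39A6 was among these members in each protocol, but by the length of the longest transcript it stood behind SLC39A4 in G&T (31.6 against 38.3) and in Takara (36.2 against 57.4). By that length SLC39A1 (178) also stood above MT2A (148) in Takara.

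Summed over a family, the SLC39A genes had 1641 CPM in NEB and 1604 CPM in Takara, against 823 CPM for G&T. The similar sums of Takara and NEB were made of different members. SLC39A1 and SLC39A7 gave 30.2% and 24.6% of the SLC39A reads in Takara and 0.848% and 0% in NEB, where SLC39A11 and SLC39A9 gave 43.1% and 40.6%. The SLC30A genes summed to 187, 295 and 923 CPM, with SLC30A9 at 59.9% and 43.8% of reads in G&T and Takara and SLC30A7 at 61.7% in NEB. By cell, the SLC39A sum spanned 318 to 1159 CPM in G&T, 1395 to 2074 in Takara and 1004 to 2787 in NEB. Every Takara cell lay above every G&T cell on this sum, but the gap rested on SLC39A1. SLC39A1 gave 366 of the 1395 CPM in the lowest Takara cell (C1) and 89.6 of the 1159 CPM in the highest G&T cell (B2). Without SLC39A1, C1 would lie below B2.

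Between Takara and G&T, 22 members had at least 1 CPM in either protocol. Of these 9 were at least 2-fold higher in Takara on log2 of the pooled CPM + 1: MT1F, SLC30A5, SLC30A6, SLC30A7, SLC39A1, SLC39A2, SLC39A7, SLC39A8 and SLC39A13. MT1F and SLC39A2 reached 1 CPM in Takara and not in G&T, and the SLC39A2 reads came from 1 Takara cell. SLC39A2, SLC39A7, SLC39A8, SLC30A6 and SLC30A7 lay close to the limit, at log2 ratios of 1.04 to 1.09. Only MT2A was at least 2-fold lower, and it was not without G&T cell H1. Over 11938 protein-coding genes tested the same way, 18.8% were higher and 21.6% lower. The median log2 ratio was 0.61 over the members and -0.01 over all protein-coding genes.

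The gap exceeded the spread of single cells for 1 of these members. Every Takara cell lay above every G&T cell for SLC39A1, beside 1.54% of all genes, and below for none, beside 0.704%. A list of 27 other genes linked to metals gave 3 higher and 6 lower of 25 tested, with a median log2 ratio of -0.08. That list was not limited to genes of metals other than zinc. No member was without a read in Takara while reaching 1 CPM elsewhere, beside 3.79% of all genes, and 1 of 22 (SLC39A2) was in G&T, beside 1.46%.

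**Figure D4:**
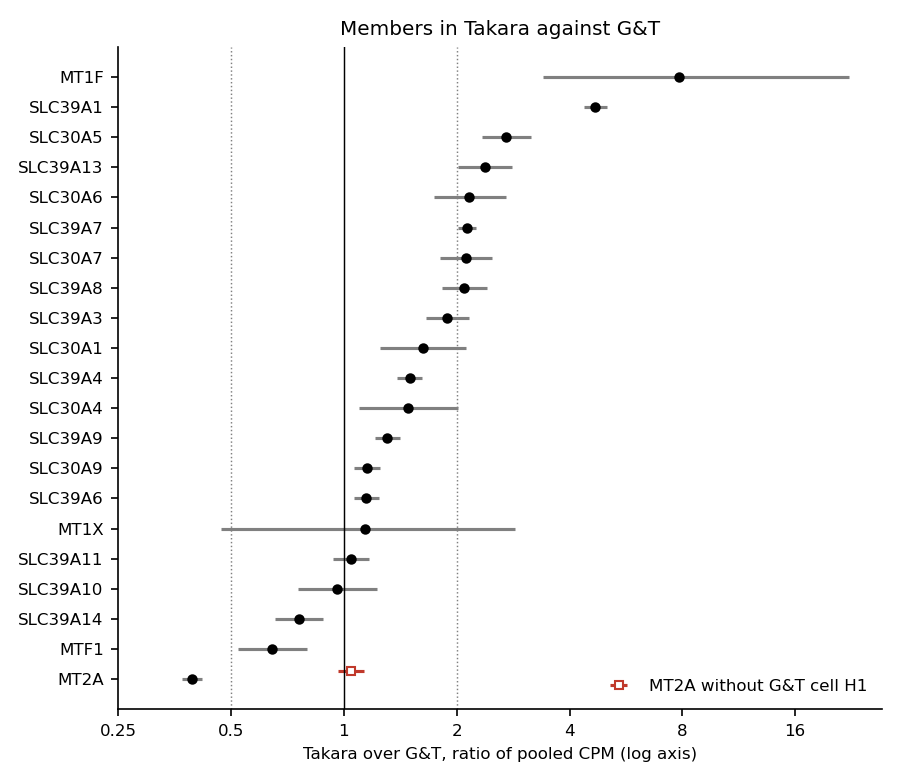
Ratio of pooled CPM, Takara over G&T, on a log axis for the 21 members with at least 1 CPM in either protocol and reads in both, with exact 95% Poisson intervals. Dotted lines mark 2-fold either way, SLC39A1 lies at 4.69-fold, and the open square shows MT2A without G&T cell H1, at 1.05-fold.

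Between NEB and G&T, 7 of 21 members were at least 2-fold higher in NEB and 7 were lower. The higher ones were SLC30A1, SLC30A4, SLC30A7, SLC39A2, SLC39A9, SLC39A10 and SLC39A11, and the lower ones MT2A, MTF1, SLC39A1, SLC39A3, SLC39A4, SLC39A7 and SLC39A13. Over 11773 protein-coding genes the shares were 18.5% and 47.8%. Every NEB cell was above every G&T cell for 2 members, beside 1.27% of all genes, and below for 4, beside 3.81%.

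Between NEB and Takara, the same 7 of 22 members were higher, beside 21.6% of all genes, and 8 were lower, beside 46%. The lower group held MT1F and SLC30A5 in place of MTF1. Every NEB cell was above every Takara cell for SLC30A7 and SLC39A11, beside 1.88%, and below for 6 members, beside 9.78%. Of 22 members with at least 1 CPM in G&T or Takara, 3 had no NEB read (MT1F, SLC39A3 and SLC39A7), beside 22.1% of all genes. These NEB contrasts share their NEB cells and were seen when the set was chosen, so nothing is read from the counts.

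GC content moved with the NEB levels. The canonical transcripts of SLC39A1, SLC39A3, SLC39A4, SLC39A7, SLC39A13 and MT2A are 55.1% to 66.6% G or C. All 6 were at least 2-fold lower in NEB than in G&T, with a median log2 ratio of -4.64. SLC39A7, whose lack of NEB reads chose the set, is among these 6, so nothing is read from their count. Of all protein-coding genes with at least 55% GC, 2837 of 3466 were at least 2-fold lower, with a median of -2.22. The 10 members below 45% GC, which include SLC30A7, SLC30A4 and SLC39A9, had 5 higher and 0 lower with a median of 1.41. Of 4652 such genes 1617 were higher and 977 lower, with a median of 0.44. Of 5 members from 45% to 55% GC, 2 were higher and 1 lower.

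Across the 21 members, Spearman's coefficient between GC content and the NEB over G&T log2 ratio was -0.64 (Pearson -0.72), and over 11773 genes it was -0.58 (Pearson -0.56). Against Takara the coefficients over 22 members were -0.65 and -0.72, and for Takara over G&T they were 0.15 and 0.12. Genes of a library share its depth and run and are not independent, so these are descriptions with no p. The NEB coefficients over members include SLC39A7, on which the choice of the set rests. SLC39A11, at 49.9% GC in its transcript and 57.9% in its coding sequence, was 11.5-fold higher in NEB. The part of GC content in the NEB levels was not tested, and looking at it was decided after the levels were seen.

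**Figure D5:**
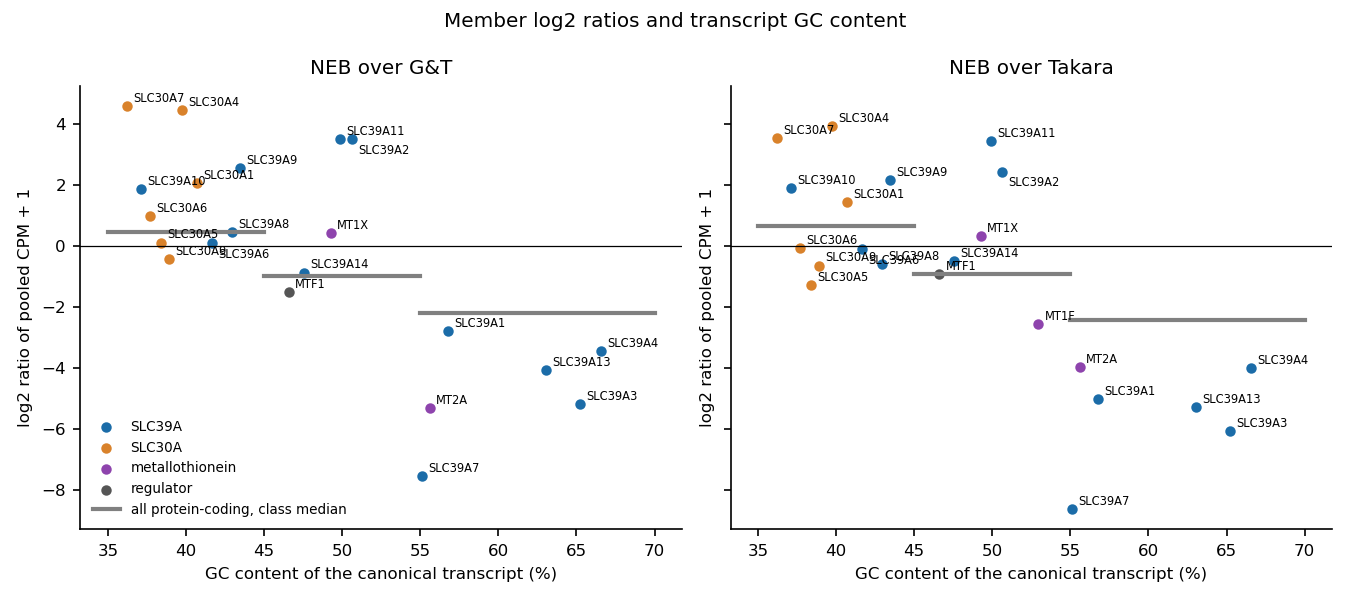
log2 ratio of pooled CPM + 1 for NEB over G&T (left) and NEB over Takara (right) against GC content of the canonical transcript, 1 point per member at or above 1 CPM, with grey bars at the median of all protein-coding genes below 45%, from 45% to 55% and at 55% GC or above. All 6 members at 55% GC or above, among them SLC39A7, on which the choice of the set rests, lie below the grey bar of their class in both panels.

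Transcript length of the members also went with the ratio of NEB over G&T (Spearman 0.52), while over all protein-coding genes the coefficient was 0.08. For NEB over Takara these were 0.51 and 0.26, and for Takara over G&T -0.21 and -0.36. The 10 tested members below 45% GC had canonical transcripts of 3152 to 8204 bases, and the 6 at 55% or above of 401 to 2413. Length and GC content of the members therefore cannot be told apart here, and the part of length was not tested.

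Correlations between members across cells were mostly weak. Over pairs of members with reads in every kept cell, the median Spearman coefficient across 11 cells was 0.055 in G&T (78 pairs, -0.73 to 0.80) and 0 in Takara (120 pairs, -0.75 to 0.61). The highest in G&T were SLC39A6 with SLC39A7 and SLC39A6 with MTF1, both 0.80 (Pearson 0.82 and 0.69, and 0.67 and 0.92 without the 2 farthest cells). In Takara the first of these was 0.19 and in NEB SLC39A7 had no read. The cells of a protocol share a plate, a run and a denominator, and no p is given.

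SLC39A6 was set beside genes of the estrogen receptor and its targets. In Takara its Spearman coefficient across 11 cells was 0.31 to 0.70 with ESR1, PGR, GATA3, CCND1 and GREB1, highest with PGR, a classical estrogen target (Pearson 0.48, and 0.69 without the 2 farthest cells). Without the 2 farthest cells Pearson went from 0.40 to 0.52 for CCND1 and from 0.32 to 0.31 for GREB1. It fell from 0.41 to 0.18 for ESR1 and from 0.60 to 0.34 for GATA3. In G&T the Spearman coefficients of the same 5 genes were 0.045 to 0.21. In NEB those of the 3 with reads in every cell were -0.15 to 0.28. Only genes with reads in every cell were taken, so TFF1, with reads in 9 G&T and 9 Takara cells, was left out. Without the 2 farthest cells Pearson in NEB went from 0.19 to -0.42 for PGR, 0.32 to -0.50 for ESR1 and 0.17 to 0.02 for GATA3. In Takara SLC39A6 also went with the number of reads on genes (0.62), so depth moved with it, and its part was not tested. The pooled ESR1 level was 235, 73.1 and 877 CPM and that of PGR 428, 164 and 1068 CPM in G&T, Takara and NEB, an order SLC39A6 did not share. Of the 7 genes of this list XBP1 was listed at 0 in every cell. It is known to be expressed in luminal cells, so this 0 may come from the counting and is not read as absence. Of the other 6 tested, 0 were at least 2-fold higher and 4 lower in Takara than in G&T, with a median log2 ratio of -1.22.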

How the data were processed

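Single T47D cells were measured by full-length RNA-seq, and the deposited values are raw read counts per gene that the authors made with Trim Galore and STAR on GRCh38. The annotation release and strand setting are not given in the sources used here. Genes were placed with GENCODE release 44, and 4175 of 60279 listed genes had no entry. The study's thresholds (at least 1000 genes and 600000 reads, at most 30% mitochondrial and 25% ERCC reads) were recomputed and left 33 of 40 cells. All count columns were mapped to samples. Cells prepared with SMART-seq3 were not analysed here.

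Counts were divided by reads on genes (CPM) per cell and over the pooled cells of a protocol, with exact 95% Poisson intervals. Folds of 2 were read on log2(pooled CPM + 1), a scale that understates low genes, with at least 1 CPM in either protocol. A level of 0 was bounded with 3 reads over the pooled cells. With 1 plate and run per protocol no test was possible between protocols. Scripts were tested on simulated data. Values are given for SLC39A7, SLC39A6, MTF1, the leading 3 members per length of each family and members past 4-fold, 18 in all, and the others by range and count. Members and lists were chosen with earlier results of these data known.

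Alternatives were all deposited cells, at least 5 reads, thinning, a pseudocount of 0.1, a fold of 4, no minimum level, TMM factors, the mean of cells in place of pooled reads, other read totals, the longest transcript as length, and leaving out each cell. Python 3.11.15, numpy 2.4.6, pandas 2.3.3, scipy 1.17.1, matplotlib 3.10.9, R 4.3.3 and edgeR 4.0.16 (TMM factors only) were used.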

Additional observations from a re-analysis of the deposited data

Results flagged for a closer look

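Many members had reads in removed wells, and some pseudogenes had reads in kept cells. Of these, 3 items were flagged. SLC39A2 had 9 reads in the removed G&T well F1, while the kept G&T cells had none. The pseudogene MT1DP had 9 reads in Takara, in 3 cells. The pseudogene MT1XP1 had 8 reads in NEB, in 1 cell. Beyond these items, SLC39A7 had 1 read in the removed NEB well B2, while the kept NEB cells had none. The pseudogene MT2P1 had 1 read in G&T.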

How the results depend on the processing

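No paired analysis was possible because the results come from no test, and wells of equal name on different plates are different cells. With at least 5 reads required, a cell held 16.2 members in G&T and 19.3 in Takara, and with all deposited cells a Takara cell held 17.5. At 4-fold, 1 member was higher and 0 were lower in Takara than in G&T. Without G&T cell H1, left out for its MT2A level, 0 members were at least 2-fold lower in Takara, and the log2 ratio of summed metallothioneins, Takara over G&T, went from -1.29 to 0.10. Leaving out 1 cell at a time gave summed metallothionein levels of 130.15 to 374.62 CPM in G&T, 123 to 148 in Takara and 6.61 to 10.3 in NEB. Per length of the longest transcript, SLC39A1 in Takara had 178 CPM per kb, SLC30A5 in Takara 16.01 and SLC39A11 in NEB 257. With all deposited cells SLC39A7 in NEB had 0.111 CPM and SLC39A2 in G&T 0.834 CPM. The SLC39A7 value is the 1 read of NEB well B2, and the SLC39A2 value is the 9 reads of G&T well F1. The Takara wells added, C2 and F1, had 15325 and 7990 reads on genes. The values per longest transcript differ by the length used. No cause beyond these was tested. Each protocol is 1 plate and 1 run, and the intervals cover counting error only. Whether all cells came from 1 culture is not given in the sources used here.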
